A study of Mus musculus with 6 samples.

Results

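Chemokine ligands of the mouse cortex and its coverings were followed across RNA bound to tagged ribosomes and unbound cortex RNA. The genes were chosen by name: Cxcl12, Cxcl14, Cxcl16, Cx3cl1, Ccl27a, Cxcl1, Cxcl10, Ccl2 and Ccl11. Each probe set whose platform annotation carries 1 of these symbols and no other was taken as a member, which gave 18 of the 45101 probe sets on the array, for 9 of 18194 genes with such a probe set. A further 2 probe sets carry Ccl27a together with other symbols and are given apart from the members.

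The study used Affymetrix arrays and mice of line ES691, a BAC transgenic line with the driver S100a10, backcrossed for 3 to 5 generations from FVB onto C57BL/6 and left untreated. In translating ribosome affinity purification (TRAP), tagged ribosomes of the cells that use the driver are pulled down together with the mRNA on them. The TRAP group held 3 arrays of precipitated cortex RNA, and the comparison group held 3 arrays of cortex RNA left after the precipitation, called unbound here after the submitters' descriptions although the titles read input. All 6 samples come from the same transgenic line, no age or number of animals is given for them in the labels, and the samples are described as biological replicates, and nothing says whether they came from separate animals, so the p-values rest on a spread that could be technical. The series text states that the driver labels some non-neuronal cells besides the pyramidal cells in its title, and every value below covers all labelled cells.

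Chemokines are small secreted or membrane-tethered proteins that bind G protein-coupled receptors and guide moving cells. They are classed by the spacing of their first cysteines as CXC, CC or CX3C ligands. Some are made constantly in healthy tissue: Cxcl12 is made by meningeal and vascular cells and guides migrating neurons and their precursors, and Cx3cl1, or fractalkine, is made by neurons and is the ligand of the microglial receptor Cx3cr1. Others, such as Cxcl1, Cxcl10 and Ccl2, are known mainly for their induction by inflammatory cytokines. In the RefSeq table used for names, Cx3cl1 lay between the chemokine genes Ccl22 and Ccl17, Ccl11 between Ccl7 and Ccl12, and Cxcl1 between Cxcl15 and Cxcl2.

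Upstream sequence was found in the RefSeq promoter table (build GRCm38.p6) for 6 of the 9 genes, in 8 windows of 250 bases that end just before an annotated transcript start. The windows of Cxcl12, Cxcl10 and Cxcl1 are shown because they set the ligand of the probe set with the smallest adjusted p, Cxcl12, beside 2 cytokine-inducible ligands. Sequences run 5′ to 3′ on the strand of the gene. Capitals mark the GC box GGGCGG or its complement in Cxcl12, the consensus of NF-kB, a factor that inflammatory cytokines activate, in Cxcl10 and Cxcl1, and in Cxcl10 also the interferon response element (GAAA, any 2 bases, GAAA).
Cxcl12 chr6:117168285-117168534 (+ strand): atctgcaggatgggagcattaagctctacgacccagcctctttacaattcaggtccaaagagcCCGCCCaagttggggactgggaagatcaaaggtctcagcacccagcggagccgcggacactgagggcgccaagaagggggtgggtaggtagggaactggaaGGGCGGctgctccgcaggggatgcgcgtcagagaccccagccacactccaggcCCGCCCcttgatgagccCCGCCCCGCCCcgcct
Cxcl10 chr5:92348890-92349139 (- strand): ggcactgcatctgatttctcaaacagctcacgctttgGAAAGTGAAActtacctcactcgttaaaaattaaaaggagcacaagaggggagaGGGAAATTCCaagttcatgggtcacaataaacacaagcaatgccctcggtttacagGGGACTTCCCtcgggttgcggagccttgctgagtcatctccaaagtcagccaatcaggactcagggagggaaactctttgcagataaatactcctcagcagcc
Cxcl1 chr5:90890995-90891244 (+ strand): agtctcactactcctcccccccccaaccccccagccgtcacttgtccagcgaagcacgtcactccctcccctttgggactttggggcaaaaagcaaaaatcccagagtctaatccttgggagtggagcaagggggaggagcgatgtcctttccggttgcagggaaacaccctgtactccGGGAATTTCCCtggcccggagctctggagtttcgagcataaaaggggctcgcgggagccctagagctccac
Both strands were searched. The Cxcl12 window held 5 GC boxes, of which the last pair overlap by 1 base, and no match to the NF-kB consensus, the interferon element or the TATA box TATAAA. The Cxcl10 window held 2 matches to the NF-kB consensus and 1 interferon element, and the Cxcl1 window held the consensus once on each strand at overlapping positions. Among all 32841 promoter windows of the same length in the table, 3.90% held the NF-kB consensus, 2.98% the interferon element, 12.4% the TATA box and 32.7% a GC box. The Cxcl14 window held 1 interferon element and the Cx3cl1 window 1 TATA box and 1 GC box. These matches describe letters in the windows, and no binding was measured.

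Intensities were deposited on a linear scale after GCRMA, a method that removes background, normalises arrays and summarises each probe set. The distributions are not equal between groups, with array medians of 31.3 to 31.6 in TRAP RNA and 42.35 to 42.97 in unbound RNA, and no source used here says whether the groups were normalised together. A probe set was tested if the mean intensity of at least 1 group reached 50, a level named in the series text. Of the 18 member probe sets 12 were tested, for 7 of the 9 genes, and Ccl2 and Ccl11 had none at that level. Differences are on the log2 scale, TRAP minus unbound, and a probe set was called when its limma p-value, adjusted by Benjamini-Hochberg over all 22591 tested probe sets, was below 0.05. Intensities of different probe sets are not comparable as levels, so each member probe set is set only against itself in the other group.

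Of the 12 tested member probe sets 4 were higher and 6 were lower in TRAP RNA, and 2 were not called. Over all tested probe sets 20.6% were called higher and 47.7% lower, 68.3% in either direction, so a call alone distinguishes a probe set little on these arrays. The members that passed the level did so in 1 or both groups, and their counts are not support for a direction. Their median log2 fold change was -0.37, against -0.25 over all tested probe sets. The groups did not overlap in 11 of the 12: TRAP values were above in 4 (background 23.2%) and below in 7 (background 51.8%, or 75% in either direction). By the brightest tested probe set of each of the 7 genes, 3 were higher, 3 lower and 1 was not called, where 68.8% of all 12070 tested genes were called. Across all 18 member probe sets, 6 had the 3 TRAP arrays above the 3 unbound arrays, 10 had them below and 2 overlapped. Over all 45037 probe sets other than controls, 80.2% did not overlap, with TRAP above in 27.3% and below in 52.9%. Against a 2-fold change, 2 member probe sets passed higher and 1 lower (limma treat), where 3.82% of all tested probe sets passed higher, 9.49% lower and 13.3% in either direction. Repeated values narrow the spread: 2 arrays of the same group held identical values in 17.9% to 21.6% of tested probe sets, and arrays of different groups in 0%. If the groups were normalised apart, the p-values given here are too small, which was not tested.

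**Figure D1:**
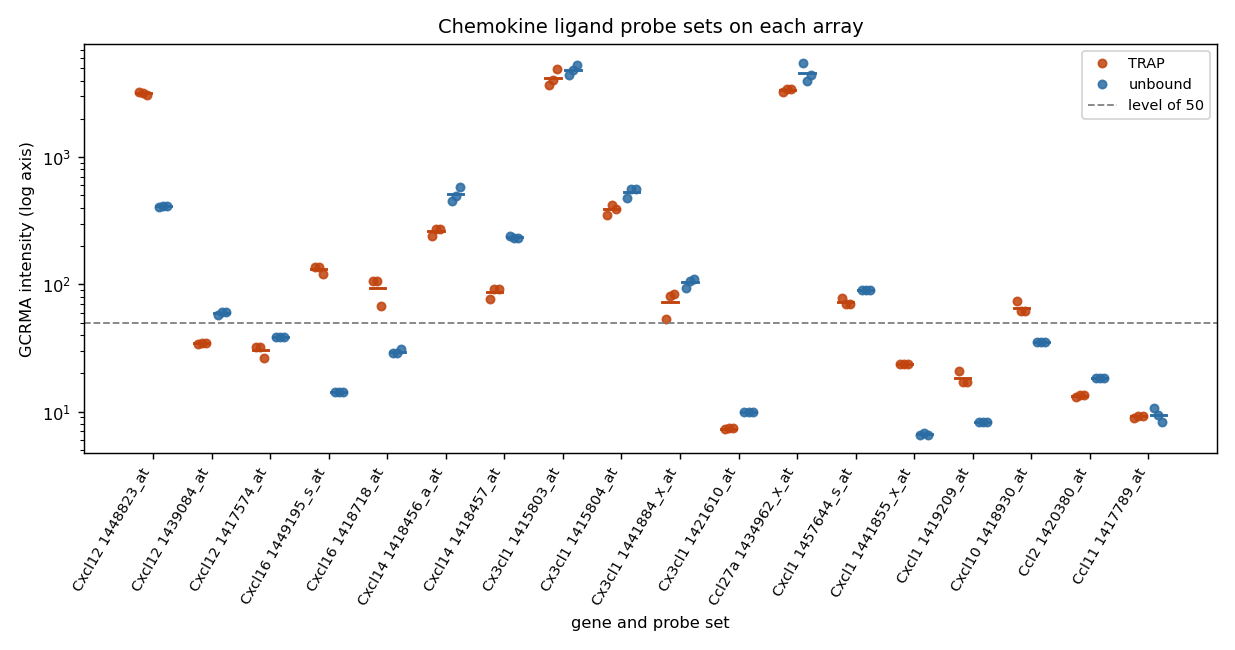
GCRMA intensity on a log axis for each of the 18 chemokine ligand probe sets, with 3 TRAP arrays (orange) and 3 unbound arrays (blue) as points, group means as short lines and the level of 50 dashed. Cxcl12 1448823_at and both Cxcl16 probe sets lie higher in TRAP RNA, both Cxcl14 probe sets lie lower, and Ccl2 and Ccl11 stay under 50 on every array.

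By probe sets 1448823_at and 1449195_s_at, Cxcl12 and Cxcl16 had the largest fitted differences among the tested members, both toward TRAP RNA. With intensities under 50 raised to 50, however, the Cxcl16 values (log2 1.39 and 0.88) were smaller in size than that of Cxcl14 1418457_at (-1.44). For Cxcl12, the ligand of Cxcr4 and of the scavenging receptor Ackr3, probe set 1448823_at read 3260, 3193 and 3071 on the TRAP arrays and 408, 416 and 416 on the unbound arrays. The groups were far apart and each was tight, though unbound arrays 2 and 3 held an identical value, which narrows the spread. The means were 3174 ± 95.7 (SD, n = 3) and 413 ± 4.94 (SD, n = 3), a 7.68-fold difference (log2 2.94, SE 0.03, limma adjusted p = 4.8e-07). The value lay at the 98.7th percentile of log2 fold changes over all tested probe sets, and it passed a test against a 2-fold change (limma treat adjusted p = 2.3e-06). In bulk RNA of this kind, more labelled cells that make a transcript and more of it per cell cannot be told apart.

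The other Cxcl12 probe sets did not share that direction. Probe set 1439084_at read 33.8, 34.9 and 34.9 on the TRAP arrays and 57.1, 61.0 and 61.0 on the unbound arrays, so TRAP values were lower on every array (log2 -0.79, SE 0.04, limma adjusted p = 4.7e-05). With intensities under 50 raised to 50 its log2 fold change was -0.26. The third, 1417574_at, was under 50 on all 6 arrays, with means of 30.2 ± 3.24 and 38.5 in the unbound group, whose 3 arrays hold 1 value. Which transcript forms of Cxcl12 each probe set detects was not analysed here.

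Cxcl16, a membrane-bound ligand of Cxcr6 that can be shed, was higher in TRAP RNA by both of its probe sets. Probe set 1449195_s_at read 136, 136 and 121 on the TRAP arrays against 14.1 on each of the 3 unbound arrays, a 9.27-fold difference (log2 3.21, SE 0.06, limma adjusted p = 1.7e-06). Probe set 1418718_at read 107, 107 and 67.4 against 28.9, 28.9 and 31.0, a 3.10-fold difference (log2 1.63, SE 0.20, adjusted p = 0.0014). All TRAP values exceeded 50 and all unbound values were below it in both probe sets. The folds rest on unbound intensities near background: with values under 50 raised to 50 they were 2.62-fold and 1.84-fold, and both remained called. Only 1449195_s_at passed the test against a 2-fold change (adjusted p = 8.6e-06, against 0.092 for 1418718_at).

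Cxcl14, a ligand made constantly in many epithelia and in some cortical interneurons, was lower in TRAP RNA by both probe sets. Probe set 1418456_a_at read 240, 274 and 274 on the TRAP arrays and 454, 492 and 581 on the unbound arrays (1.93-fold lower, log2 -0.95, SE 0.11, limma adjusted p = 0.0012). Probe set 1418457_at read 76.8, 91.5 and 91.5 against 241, 232 and 232 (2.72-fold lower, log2 -1.44, SE 0.08, adjusted p = 7.6e-05). The groups did not overlap in either probe set, and every value was above 50. The second passed the test against a 2-fold change (adjusted p = 0.013).

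Cx3cl1 differed little between the fractions. Its brightest probe set, 1415803_at, read 3661, 4063 and 4931 on the TRAP arrays and 4405, 4821 and 5345 on the unbound arrays. The ranges overlapped, and the log2 fold change of -0.21 (95% interval -0.56 to 0.14) was not called (limma adjusted p = 0.22). Within each replicate number the TRAP value was the lower, and with the replicate number as a block the adjusted p was 0.030. Probe set 1415804_at was lower at 389 ± 34.8 (SD, n = 3) against 536 ± 53.4 (log2 -0.46, SE 0.10, adjusted p = 0.013). Probe set 1441884_x_at measured 73.3 ± 17.1 against 103 ± 8.33 (log2 -0.52, SE 0.20, adjusted p = 0.068, or 0.032 with the block). The remaining probe set, 1421610_at, had means of 7.34 and 9.90.

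Ccl27a, a ligand of Ccr10 best known from skin, gave probe sets that went opposite ways. The single-symbol probe set 1434962_x_at, of a type that can cross-hybridise, read 3270, 3409 and 3431 on the TRAP arrays and 5540, 3946 and 4398 on the unbound arrays (log2 -0.44, SE 0.13, limma adjusted p = 0.032). That call was lost with the replicate block (adjusted p = 0.062) and without any 1 of TRAP replicates 1, 2 and 3 or unbound replicate 3 (adjusted p from 0.073 to 0.096). The probe sets annotated to 5 symbols each, Ccl27a and its near-identical copies among them, were higher in TRAP RNA. Probe set 1430375_a_at had means of 6317 ± 36.8 and 4436 ± 643 (log2 0.52, adjusted p = 0.0091), and 1419188_s_at had means of 4782 ± 132 and 3980 ± 485 (log2 0.27, adjusted p = 0.049). Signal of Ccl27a and of its copies cannot be told apart in the shared probe sets.

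**Figure D2:**
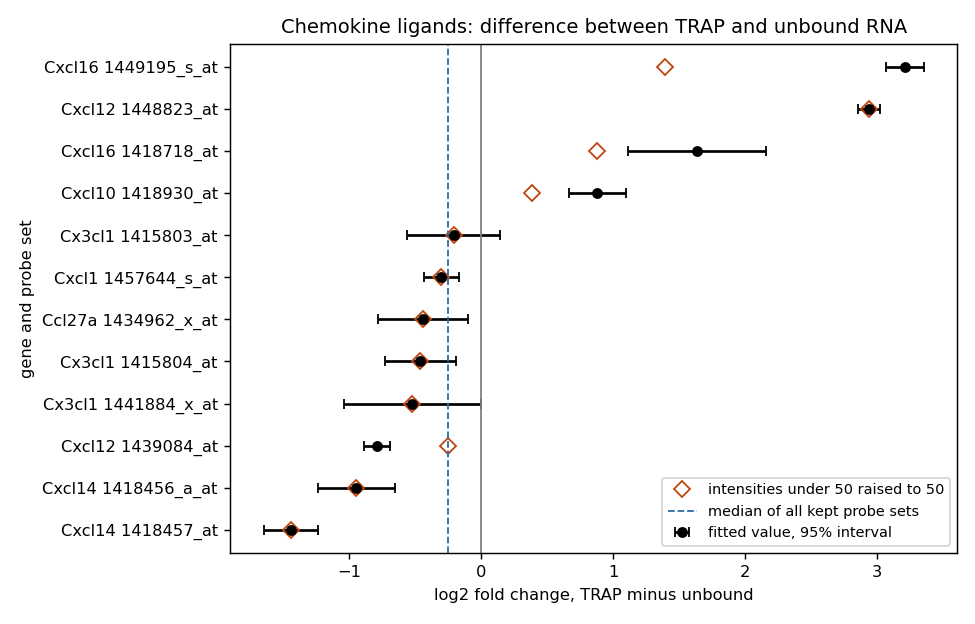
Log2 fold change, TRAP minus unbound, for the 12 tested ligand probe sets, as the fitted value with its 95% interval (black), the value with intensities under 50 raised to 50 (open diamonds) and the median of all tested probe sets (dashed, -0.25). Cxcl12 1448823_at keeps its value of 2.94 when low intensities are raised, while Cxcl16 1449195_s_at moves from 3.21 to 1.39.

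The cytokine-inducible ligands were dim in both fractions, with no array above 90.2. Cxcl10, a ligand of Cxcr3, read 74.0, 61.3 and 61.3 on the TRAP arrays and 35.5 on each of the 3 unbound arrays. TRAP values were higher on every array (1.84-fold, log2 0.88, SE 0.08, limma adjusted p = 5.3e-04), or 1.31-fold higher with values under 50 raised to 50. For Cxcl1, a neutrophil attractant that binds Cxcr2, the tested probe set 1457644_s_at read 78.6, 70.5 and 70.5 against 90.2 on each unbound array (log2 -0.30, SE 0.05, adjusted p = 0.0046). The other Cxcl1 probe sets had the opposite sign below the level: 1419209_at had means of 18.3 ± 2.19 and 8.26 ± 0.0461, and 1441855_x_at had 23.6 on each TRAP array against 6.64 ± 0.123.

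Ccl2, the main attractant of monocytes through Ccr2, read 12.97, 13.4 and 13.4 on the TRAP arrays and 18.4 on each unbound array. Ccl11, or eotaxin, a ligand of Ccr3, read 8.97, 9.30 and 9.30 on the TRAP arrays and 10.7, 9.35 and 8.30 on the unbound arrays. The 6 member probe sets below the level have no call here. When all 45037 probe sets were fitted without a filter, 5 of the 6 had an adjusted p under the threshold and Ccl11 did not (limma adjusted p = 0.79). In that fit 73.9% of all probe sets were called, so these calls near background say little about the ligands.

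The calls in the middle of the range depended on how arrays were scaled. The median log2 fold change of all tested probe sets was -0.25 as deposited, -0.03 after quantile normalisation, 0.01 after centring on the tested probe sets and 0.18 after centring on all probe sets. Calls toward TRAP RNA were 30.2% of all calls as deposited and 47.4%, 50.5% and 63.2% under those scalings. Under all 4 scalings Cxcl12 1448823_at (log2 2.94 to 3.37), both Cxcl16 probe sets and Cxcl10 were called higher, and both Cxcl14 probe sets and Cxcl12 1439084_at were called lower. Cxcl14 ranged from -0.95 to -0.52 in 1418456_a_at and from -1.44 to -1.01 in 1418457_at. Ccl27a 1434962_x_at, Cx3cl1 1415804_at and Cxcl1 1457644_s_at were called lower only as deposited, and after centring on all probe sets their log2 fold changes were -0.01, -0.03 and 0.13. Cx3cl1 1415803_at, called under none of the 4, ranged from -0.21 to 0.22.

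**Figure D3:**
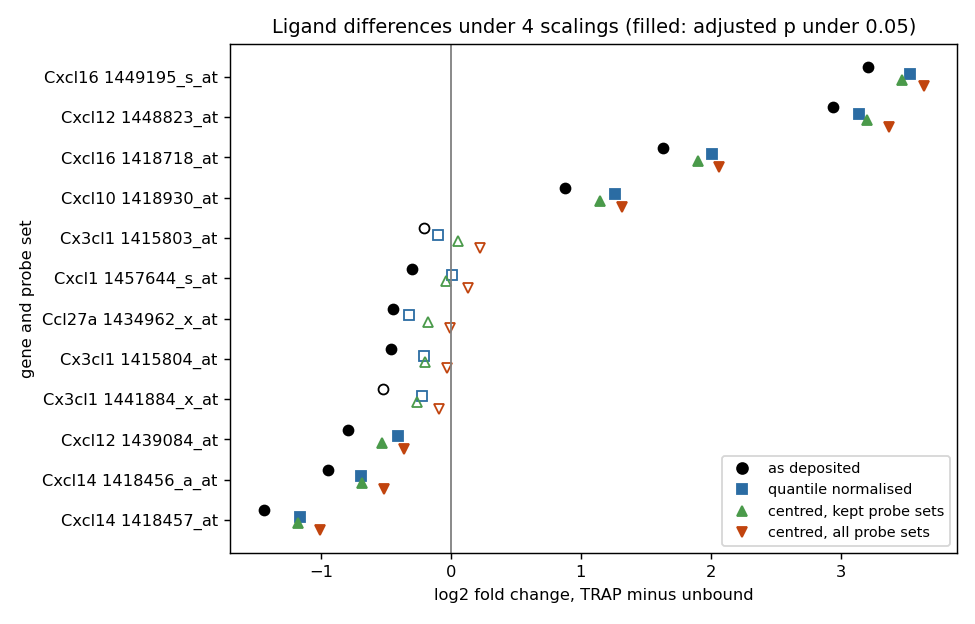
Log2 fold change of the 12 tested ligand probe sets as deposited (circles), after quantile normalisation (squares) and after centring on tested (upward triangles) or all probe sets (downward triangles), filled where the adjusted p was under 0.05. The 4 upper and the 3 lower probe sets are filled under every scaling, and the 5 between them are open under the other 3 scalings.

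**Figure D4:**
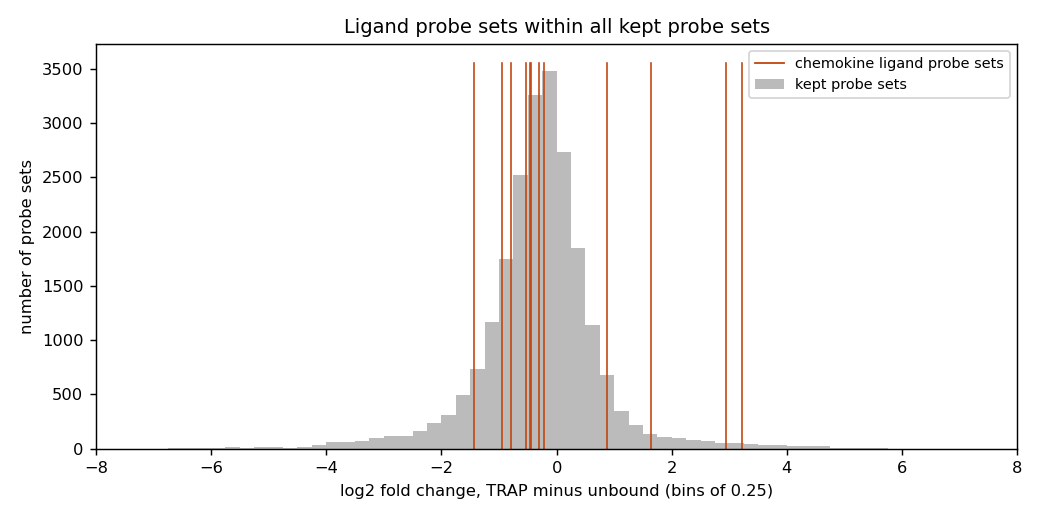
Number of tested probe sets in bins of 0.25 on the log2 fold change axis (grey, 22591 in all), with the 12 ligand probe sets as orange lines. Cxcl12 1448823_at and Cxcl16 1449195_s_at lie in the upper tail at 2.94 and 3.21, and the lines between -0.55 and -0.20 fall in the bulk.

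Receptors of these ligands were mostly under the level. Cxcr4, the signalling receptor of Cxcl12, had means of 7.24 ± 0.122 (SD, n = 3) in TRAP RNA and 7.46 ± 0.140 in unbound RNA. Ackr3, which also binds Cxcl12 and clears it, read 385, 461 and 358 on the TRAP arrays and 221, 233 and 194 on the unbound arrays, a 1.85-fold difference (log2 0.89, SE 0.12, limma adjusted p = 0.0021). Cx3cr1, the receptor of Cx3cl1 on microglia, read 13.03, 20.4 and 15.8 against 115, 147 and 165 (log2 -3.13, SE 0.22, adjusted p = 1.7e-04). It was 8.74-fold lower, or 2.82-fold lower with values under 50 raised to 50. Of the ligand Cx3cl1, the brightest probe set was not called and 1415804_at was called lower (log2 -0.46, limma adjusted p = 0.013). With the replicate block, Cx3cl1 1415803_at, 1415804_at and 1441884_x_at were all called lower (limma adjusted p = 0.030, 0.0034 and 0.032). Whether the differences of ligand and receptor were unlike was not tested.

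The remaining signalling receptors of these ligands gave little signal. The Cxcl16 receptor Cxcr6 had TRAP means of 7.63 and 7.90 in its probe sets, the Cxcl1 receptor Cxcr2 13.9, the Ccl11 receptor Ccr3 4.10 and the Ccl27a receptor Ccr10 8.40, none of them reaching 50 in unbound RNA either. The Cxcl10 receptor Cxcr3 measured 43.1 ± 0.624 against 42.0. For the Ccl2 receptor Ccr2, probe set 1460067_at measured 74.7 ± 0.754 against 71.5 ± 17.8 (log2 0.09, limma adjusted p = 0.68, or log2 0.53 with adjusted p = 0.048 after centring on all probe sets), and the others were below 20. Of 23 receptors listed, 21 had a single-symbol probe set and 6 were tested, of which 2 were higher and 3 lower (median log2 fold change -0.26). Among all genes represented by their brightest tested probe set, 23.2% were called higher and 45.6% lower, with a median of -0.21. These shares are the background for the receptors and for each gene list below.

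**Figure D5:**
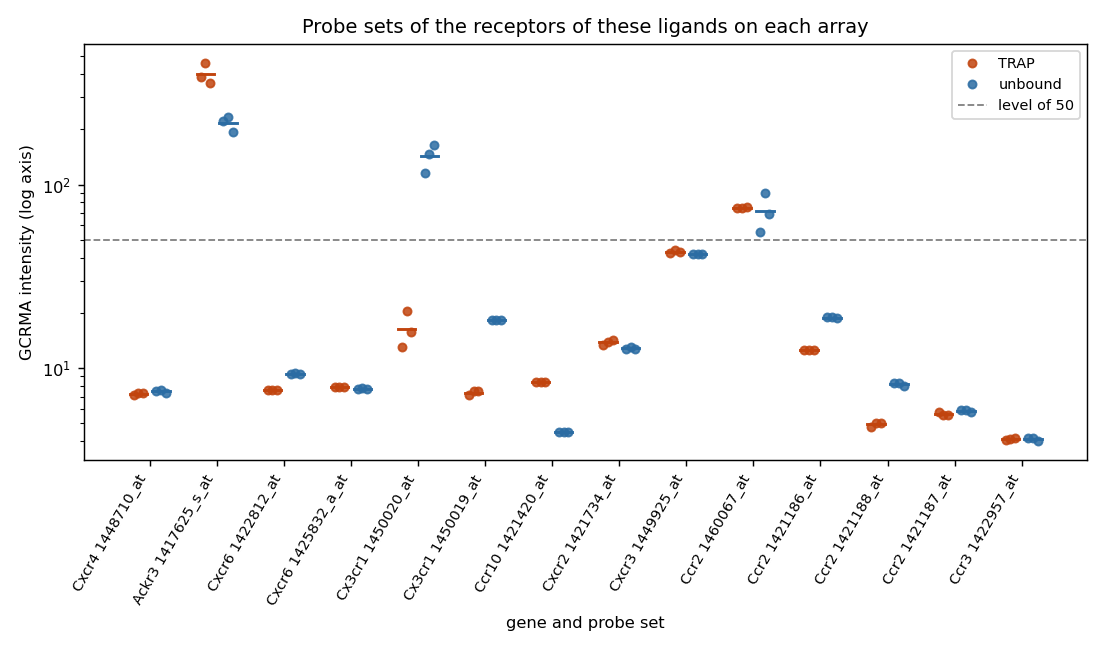
GCRMA intensity on a log axis for each probe set of Cxcr4, Ackr3, Cxcr6, Cx3cr1, Ccr10, Cxcr2, Cxcr3, Ccr2 and Ccr3. Points are 3 TRAP (orange) and 3 unbound (blue) arrays, short lines are means and the level of 50 is dashed. The scavenging receptors Ackr1 and Ackr2 are not shown. Ackr3 lies higher in TRAP RNA, Cx3cr1 1450020_at is above 50 only in unbound RNA, and Cxcr4 lies near 7 in both groups.

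The other called receptors were Ccr9, a gut-homing receptor, and the scavenging receptors Ackr1 and Ackr2, whose ligands include some of the members. Ccr9 1427419_x_at, of a type that can cross-hybridise, measured 74.8 ± 0.482 against 6.96 ± 0.121 (log2 3.43, limma adjusted p = 2.5e-07). Its log2 fold change was 0.58 when values under 50 were raised to 50. The other 4 Ccr9 probe sets stayed under 50 and differed in direction. Ackr2, which degrades CC chemokines, was lower by 1437937_at (log2 -1.39, limma adjusted p = 3.8e-06). That probe set measured 37.8 ± 1.18 against 98.8 on each unbound array, and its log2 fold change was -0.98 with values under 50 raised to 50. The other Ackr2 probe sets stayed under 50. Ackr1 1432273_a_at read 893, 1217 and 1105 on the TRAP arrays and 1327, 1763 and 1826 on the unbound arrays (log2 -0.61, limma adjusted p = 0.030). The lower call of Ackr1 was lost under the other 3 scalings (adjusted p 0.090 to 0.41). It was also lost when TRAP replicate 1, TRAP replicate 3, unbound replicate 2 or unbound replicate 3 was left out (0.072 to 0.094).

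Of 28 other chemokine ligands, 26 had a single-symbol probe set and 5 were tested, of which 2 were higher and 2 lower (median -0.26). Ccl5, a T cell attractant, read 128, 69.5 and 85.7 on the TRAP arrays and 3.93, 3.93 and 3.82 on the unbound arrays (log2 4.55, SE 0.23, limma adjusted p = 5.7e-05). The unbound values were among the lowest on the array, and with values under 50 raised to 50 Ccl5 was 1.83-fold higher. Ccl17 was 1.74-fold higher (adjusted p = 1.0e-03), or 1.25-fold with raised values. Ccl28, an epithelial ligand of Ccr10, was lower at log2 -0.91 (adjusted p = 0.0031), and Pf4, a platelet and macrophage chemokine, at log2 -0.68 (adjusted p = 0.0010).

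Proteases that act on these ligands were divided. All 5 tested members of a list of 6 were called, 3 higher and 2 lower (median 0.40). Adam10 and Adam17, the sheddases that release Cx3cl1 and Cxcl16 from the membrane, were lower at 1237 ± 246 (SD, n = 3) against 2457 ± 70.6 (log2 -1.01, limma adjusted p = 0.0034) and 60.3 ± 19.7 against 136 ± 2.65 (log2 -1.22, adjusted p = 0.0094). Mmp14, a membrane-bound matrix protease, was higher at 266 ± 53.9 against 39.1 ± 1.11 (log2 2.75, adjusted p = 7.4e-05). Mmp2, a gelatinase that can cleave Cxcl12, had a log2 fold change of 1.63 (adjusted p = 3.8e-04) and of 0.12 with values under 50 raised to 50 (adjusted p = 0.38). Dpp4, a peptidase that trims Cxcl12 and Cxcl10, was higher at log2 0.40 (adjusted p = 0.048), a call lost with the replicate block (0.098) and when any array but TRAP replicate 3 was left out (0.063 to 0.13).

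Heparan sulphate proteoglycans hold chemokines at cell surfaces and in matrix. Of 15 tested genes among 18 listed carriers and enzymes, 1 was higher, 7 were lower and 7 were not called (median -0.32, against -0.21 for all genes). After centring on the tested probe sets 2 were higher and 1 lower, and after centring on all probe sets 5 were higher and 1 lower. Sdc3, a neuronal syndecan, was 2.52-fold lower (log2 -1.34, limma adjusted p = 0.0014) and was called under all 4 scalings. Agrn (log2 -0.69, adjusted p = 0.035) and Hs6st1 (log2 -0.55, adjusted p = 0.039) were called only as deposited. Agrn also lost its call without TRAP replicate 1 or 3 or without unbound replicate 2 or 3 (adjusted p 0.058 to 0.105), and Hs6st1 when TRAP replicate 1 or 2, or unbound replicate 2 or 3, was left out (adjusted p 0.085 to 0.116). Sdc1 had a log2 fold change of 1.67 (adjusted p = 4.5e-04) and of 0.11 with raised values (adjusted p = 0.29).

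Among genes of receptor signalling, 2 of 9 tested of 13 listed were higher and 5 lower (median -0.33), or 4 higher and 3 lower after centring on the tested probe sets. Grk3, a kinase that desensitises receptors, was 3.32-fold lower (log2 -1.73, limma adjusted p = 0.0012) and Grk5 1.56-fold lower (log2 -0.64, adjusted p = 9.9e-05). The arrestin genes had opposite signs, with Arrb1 at log2 -0.51 (adjusted p = 9.4e-04) and Arrb2 at 0.29 (adjusted p = 0.0049). After centring on all probe sets Arrb1 was at -0.08 and not called (adjusted p = 0.35). Rac1 was lower at log2 -0.43 (adjusted p = 0.020), a call lost after centring on the tested probe sets (adjusted p = 0.22) and when unbound replicate 1 or 2 was left out (0.056 and 0.062). Gnai2, the inhibitory G protein subunit abundant in leukocytes, was higher at log2 0.42 (adjusted p = 0.0090).

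Cytokines that induce chemokines lay under the level, and some of their receptors were higher in TRAP RNA. Tnf, Il1b, Il6, Ifng and Ifnb1 each stayed below a mean of 50 in both groups. Of 9 tested genes of 16 listed, 4 were higher and 1 lower (median 0.53). Tnfrsf1a, the main receptor of tumour necrosis factor, measured 309 ± 8.67 (SD, n = 3) against 101 ± 5.25 (log2 1.62, limma adjusted p = 9.5e-06), and the interleukin 1 receptor Il1r1 198 ± 9.67 against 69.7 (log2 1.51, adjusted p = 7.5e-06). The interferon receptor subunits had opposite signs, with Ifnar2 at log2 1.03 (adjusted p = 1.5e-04) and Ifnar1 at -0.83 (adjusted p = 9.4e-04).

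Markers of other cell types moved between the same fractions, and their part in the ligand values was not tested. Meningeal fibroblast markers were higher in 11 of 11 tested genes of 12 listed, with intensities summed over the tested genes of 37775 to 42097 on the TRAP arrays and 1568 to 1872 on the unbound arrays; Col1a1 lay under the level. Of 7 tested markers of pericytes and smooth muscle 5 were higher and 1 was lower (5457 to 6819 against 1951 to 2286), without Abcc9, Kcnj8 and Myh11, which lay under the level. The lower gene was Rgs5 (209 ± 1.13 against 973 ± 10.3, log2 -2.22), and Cspg4 was not called. Endothelial markers were higher in 1 of 3 tested of 10 and lower in 1 (4040 to 4401 against 599 to 605), a sum carried by Itm2a (4088 ± 171 against 467 ± 3.35), while Slco1a4 measured 69.3 ± 6.22 against 65.3 ± 0.667 and Cldn5 53.1 ± 6.13 against 68.6. The lower call of Cldn5 was lost under the other 3 scalings and when any 1 unbound array was left out, and Cdh5, Pecam1, Tek, Tie1, Kdr, Flt1 and Emcn lay under the level. Interneuron markers were lower in 10 of 12 tested (18506 to 22282 against 42232 to 43905), microglial markers, Cx3cr1 among them, in 8 of 9 (546 to 794 against 1694 to 2246; Itgam, Siglech and Trem2 under the level), border macrophage markers in 3 of 4 with 1 higher, or in 1 with values under 50 raised to 50 (195 to 217 against 216 to 235; Cd163, Ms4a7, Cbr2 and Clec10a under the level) and oligodendrocyte markers in 9 of 9 (8933 to 14586 against 56620 to 62977). Pyramidal neuron markers, the class in the study's title, were higher in 3 of 7 and lower in 2 (14538 to 14838 against 13170 to 15646). Astrocyte markers were higher in 3 of 10 and lower in 5 (17241 to 20367 against 17600 to 25853). Bright genes weigh most in these sums, such as Gja1 (6594 ± 1545 against 6623 ± 1731, not called). Single astrocyte markers differed widely, from Gfap (log2 -4.29, or -2.94 with raised values), Aqp4 (-3.91) and Mlc1 (-3.24) to Gjb6 (2.52). Of blood leukocyte markers with a probe set, 0 of 5 reached the level.

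The genes nearest each ligand in profile were found among 11579 other named genes by the root mean square difference of log2 values, each less its own mean, over the 6 arrays. For Cxcl12 they were Osgin1, Pdgfd and Agpat2 (0.0319 to 0.0613), for Cxcl16 Zic4, Tmem45a and Cox6b2 (0.0272 to 0.0589), and for Cxcl14 Pcnx, Atp6v0a2 and Synpo (0.0512 to 0.0576). For Cx3cl1 they were Lrrn3, Plxnc1 and Ggt7 (0.0235 to 0.0436), for Ccl27a Inpp4a, Fastkd1 and Zfp799 (0.0418 to 0.0445), for Cxcl10 Sncaip, Nudt4 and Nt5c (0.0383 to 0.0505), and for Cxcl1 Otub1, Agtpbp1 and Zfp740 (0.0168 to 0.0239). With only 2 groups these profiles consist mostly of the difference between the groups.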

How the data were processed

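The authors deposited intensities on a linear scale, made with GCRMA per the submitters' processing notes; its version and whether the groups were processed in 1 run are not given in the sources used here. Per the labels' protocols, 15 ng of total RNA was amplified in a pair of cycles, which favours sequence near the poly(A) tail. All 6 columns were used and 0 left out. The platform annotation gave 34958 probe sets 1 symbol, 932 several and 9211 none; 34754 matched RefSeq by Entrez ID and 0 symbols changed. The 64 control probe sets were left out of tests.

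Log2 intensities, without a pseudocount, were fitted by group alone in R 4.3.3 (limma 3.58.1, two-sided moderated tests) over 22591 probe sets with a group mean of at least 50. For gene lists each of 12070 genes was represented by its probe set with the highest mean. Replicate numbers pair the samples: deviations from group means correlated at 0.424, 0.454 and 0.374 across probe sets for same-numbered samples and between -0.309 and -0.0955 otherwise, so a fit with the number as a block was an alternative. The smallest two-sided permutation p for 3 against 3 is 0.1, so none was computed. The fit was also run on simulated data in which 200 of 22591 probe sets were changed. It recovered 100% of 2-fold and 94% of 1.41-fold changes, and 3.48% of its calls were unchanged probe sets. The simulated share of changes was far below the 68.3% called here, so that run cannot check the p-values given here.

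The members and gene lists were chosen with earlier results of these data known. Named by rule were all members, receptors of the members except Ackr1 and, of each pathway list, up to 4 called genes with the largest change and those against the majority. Ackr1 and Dpp4 were named after their values were seen. Some listed genes were not analysed here. S100a10 measured 14128 ± 1095 (SD, n = 3) in TRAP RNA and 2430 ± 451 in unbound RNA by its brightest probe set. The number of arrays limits precision.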

Additional observations from a re-analysis of the deposited data

How the results depend on the processing

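The 12 tested ligand probe sets were refitted under every alternative that kept them, centring on the tested probe sets being chosen after the data were seen. Of 186 such values 159 kept direction and side of the threshold, 19 lost and 4 gained a call, and 4 changed sign. Cx3cl1 1415803_at, not called either way, was 0.22 after centring on all probe sets and 0.05 after centring on the tested ones. Cxcl1 1457644_s_at was 0.13 after centring on all probe sets and 0.00771 after quantile normalisation. Rac1 was 1.41e-05 after the first. The 10 ligand calls became 6 when both group means had to reach 50, 6 with 1 probe set per gene, 2 among the 3 probe sets without repeated values and 3 against a 2-fold change. The 15430 calls over all probe sets became 33289 with no filter, 8329 with 1 probe set per gene, 5920 without repeated values and 3007 against a 2-fold change. The 34 called pathway genes became 73 with no filter, 15 without repeated values and 9 against a 2-fold change. In the main fit 68.8% of all 12070 tested genes were called, so the count of 34 alone says little about the pathway. Fewer or more probe sets enter some of these fits by construction. Leaving out 1 array at a time gave 9 to 10 ligand calls, 13612 to 14677 calls in all and 27 to 35 pathway calls. With the replicate block, 11 ligand probe sets, 16147 probe sets and 38 pathway genes were called, and among the ligands it changed no call beyond those of Ccl27a and Cx3cl1. Intensities under 50 limit the size of the folds of Cxcl16, Cxcl10, Ccl5 and Ccr9.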

Other observations

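Ttr, the transthyretin gene of choroid plexus, varied widely within both groups. It read 35.0, 36.4 and 175 on TRAP arrays 1, 2 and 3 and 159, 76.3 and 2886 on unbound arrays 1, 2 and 3. Both arrays of replicate 3 were the highest of their group. The choroid plexus gene Kcnj13 read 699, 823 and 767 against 49.8, 50.1 and 50.1 and did not share that pattern. Of 4 tested choroid plexus markers among 7 listed, 2 were higher, 1 was lower and 1, Ttr, was not called. Aqp1, Folr1 and Otx2 lay under the level. Kl was called higher besides Kcnj13, but its log2 fold change was 0.12 with values under 50 raised to 50. Clic6 was called lower (log2 -0.43, limma adjusted p = 5.4e-05), a call lost after quantile normalisation and after centring on all probe sets.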
